A study of Drosophila melanogaster with 12 samples.

Results

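The testis TAFs of Drosophila melanogaster are germline paralogs of subunits of TFIID, the general transcription factor that carries TBP to core promoters. Their transcripts were followed through the 5 genes sa, can, mia, nht and Taf12L. All probe sets that the platform annotation assigns to one of these symbols were taken, which gave 6 of the 18769 probe sets on the array. Each of sa, can, mia and nht has 1 probe set, and Taf12L has a pair of them that behaved differently. As background, TFIID subunits are built around histone-fold pairs and a WD40-repeat subunit. In primary spermatocytes the testis versions are needed to switch on many genes used in meiotic division and spermatid differentiation. They are known to act at the promoters of those genes, where they lower the binding of Polycomb, and to gather with Polycomb proteins in the spermatocyte nucleolus. The sa gene encodes a relative of TAF8, can of the WD40 subunit TAF5, mia of TAF6, nht of TAF4 and Taf12L of TAF12. In general TFIID, TAF4 and TAF12 pair through their histone folds.

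RNA came from whole testes of males 1 day old, in pools of about 200 pairs of testes, with 4 µg of total RNA per hybridisation and 1 Affymetrix Drosophila Genome 2.0 array per RNA sample. Each of 4 genotypes had 3 biological replicates: aly (aly2/aly5P), sa (sa1/sa2), bam (bam1/bamΔ86) and the control stock y,w, called yw here. Spermatocytes of aly testes, which lack a subunit of the testis Myb-MuvB complex (tMAC), and of sa testes arrest before meiosis. Testes mutant for bam fill with spermatogonia-like cells, and yw testes run the whole of spermatogenesis. The question put by these groups is when in the lineage the testis TAF transcripts are made and which regulators their levels need. Whole testes hold somatic cells and germ cells of several stages, so fewer cells of a type and less RNA per cell cannot be told apart in any value here. Below, a group is named by its label ("sa arrays"), and the gene sa is called the sa transcript.

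Values are deposited linear intensities, and differences are on the log2(intensity + 16) scale, which understates the change of dim probe sets. A probe set was called when limma's Benjamini-Hochberg adjusted p over all 18769 probe sets was below 0.05 and the fold was at least 2. The median of all probe sets on an array lay between 44.9 and 57.2, and the number of arrays, 3 per genotype, limits the precision. Across probe sets, which are not independent replicates, r was at least 0.982 between arrays of the same genotype. The mutated genes were read first. The aly probe set was at 132, 134 and 148 in aly arrays against 87.1, 83.7 and 89.4 in yw arrays, and that of bam at 1174, 1094 and 948 in bam arrays against 67.2, 36.5 and 66.3 in yw arrays. Neither was lower in its own mutant, and the files do not say which stretch of either gene is probed or lost, so they check no label. Stage markers were read instead. The summed intensity of 8 spermatocyte markers was 32581 to 35667 in aly arrays, 21840 to 26481 in sa arrays and 29260 to 32617 in yw arrays, against 394 to 496 in bam arrays. These sums set bam arrays apart, but those of aly and yw overlapped and do not check the aly label. Against yw, 4 of the 8 were called higher and 2 lower in aly, and 3 higher and 3 lower in sa. Of probe sets with a genotype mean of at least 100, 38.6% were called higher and 20.1% lower in aly, and 32.7% and 17.4% in sa. Of 7 spermatogonial markers the sum was 12165 to 14236 in bam arrays, against 1411 to 1734 in yw arrays. The marker set of the testis muscle sheath also moved, with 7 genes summing to 1555 to 2032 in aly arrays and 1870 to 2580 in sa arrays, against 10005 to 11289 in bam arrays; 6 of the 7 were lower than in bam in each arrest mutant, and in sa 1 was higher. The 7 cyst cell markers, for the somatic cells that enclose the germ cells, summed to 584 to 800 in aly arrays and 903 to 971 in sa arrays, against 4103 to 4149 in bam arrays. Only 3 of the 7 were called lower than in bam in each arrest mutant (Nrt, zfh1 and piwi), and piwi, which germ cells also express, made up most of the bam sum (87.7 in aly and 78.3 in sa against 2903 in bam). Beside these marker counts, 27.0% of probe sets with a genotype mean of at least 100 were called lower than in bam in aly, and 29.4% in sa. Accessory gland genes, 11 of them, summed to between 6177 in an aly array and 95721 in a bam array. No marker was listed at 0, and the part of these other cells in the differences below was not tested.

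The sa transcript was the most changeable of the family. It measured 7616, 6878 and 7590 in aly arrays, 112, 112 and 96.2 in sa arrays, 25.3, 20.8 and 22.9 in bam arrays, and 1518, 1179 and 1515 in yw arrays. The order was aly, yw, sa, bam, with no overlap between any neighbouring genotypes. In yw testes the mean was 19.1% of that in aly testes. The low level in sa arrays is that of a transcript in its own mutant, and it checks the label of those arrays. It was nevertheless above the bam level in all 3 arrays (107 ± 9.26 against 23.0 ± 2.23, SD, n = 3 each; log2 difference 1.65, adjusted p = 1.34e-07), a call that a pseudocount of 64 ends (0.97). Where the probe set lies relative to the lesions of sa1 and sa2 is not known here.

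The can transcript was close to the array's floor in bam testes and present in every other genotype. It measured 2055, 1488 and 1863 in aly arrays, 955, 1080 and 739 in sa arrays, 15.8, 16.4 and 17.7 in bam arrays, and 462, 468 and 655 in yw arrays. The genotypes did not overlap, in the order aly, sa, yw, bam. The bam values lay below the median of all probe sets, so the bam level is close to what an unexpressed gene gives. Outside bam, spread between replicates was wider for can than for the other bright members, with an SD of 16% of the mean in aly, 18.6% in sa and 20.8% in yw. In bam it was 5.87% for can, within the range from 5.06% for mia to 17.5% for Taf12L.

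Unlike can and the sa transcript, mia was well above that floor in bam testes. It measured 2766, 2298 and 2469 in aly arrays, 1059, 1194 and 1070 in sa arrays, 475, 506 and 459 in bam arrays, and 390, 334 and 435 in yw arrays. The order was aly, sa, bam, yw, which makes mia the only one of the 5 genes whose lowest mean was in yw testes. The bam and yw arrays did not overlap, yet their difference was below 2-fold (log2 difference 0.31, 95% interval 0.08 to 0.54).

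The nht transcript measured 4296, 4270 and 4375 in aly arrays, 2854, 3317 and 2742 in sa arrays, 140, 162 and 138 in bam arrays, and 832, 620 and 780 in yw arrays. The order was aly, sa, yw, bam, as for can, and no neighbours overlapped. Levels of nht in aly arrays were the tightest of any member, with an SD of 1.27% of the mean.

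The brighter probe set of Taf12L had another order. It measured 4198, 3847 and 3994 in aly arrays, 9665, 9422 and 8652 in sa arrays, 767, 806 and 1049 in bam arrays, and 2095, 1616 and 2040 in yw arrays. Its highest level was thus in sa testes, and the aly mean was 43.4% of the sa mean, whereas sa, can, mia and nht were highest in aly testes. The second Taf12L probe set stayed dim, at 33.7 to 59.3 in the mutant arrays and 45.6, 93.5 and 41.4 in yw arrays. On the deposited scale none of its 6 comparisons passed, and the interval reaching farthest from 0 ran from -0.89 to 0.01 (sa minus yw). Which Taf12L sequences each probe set covers is not known here.

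**Figure D1:**
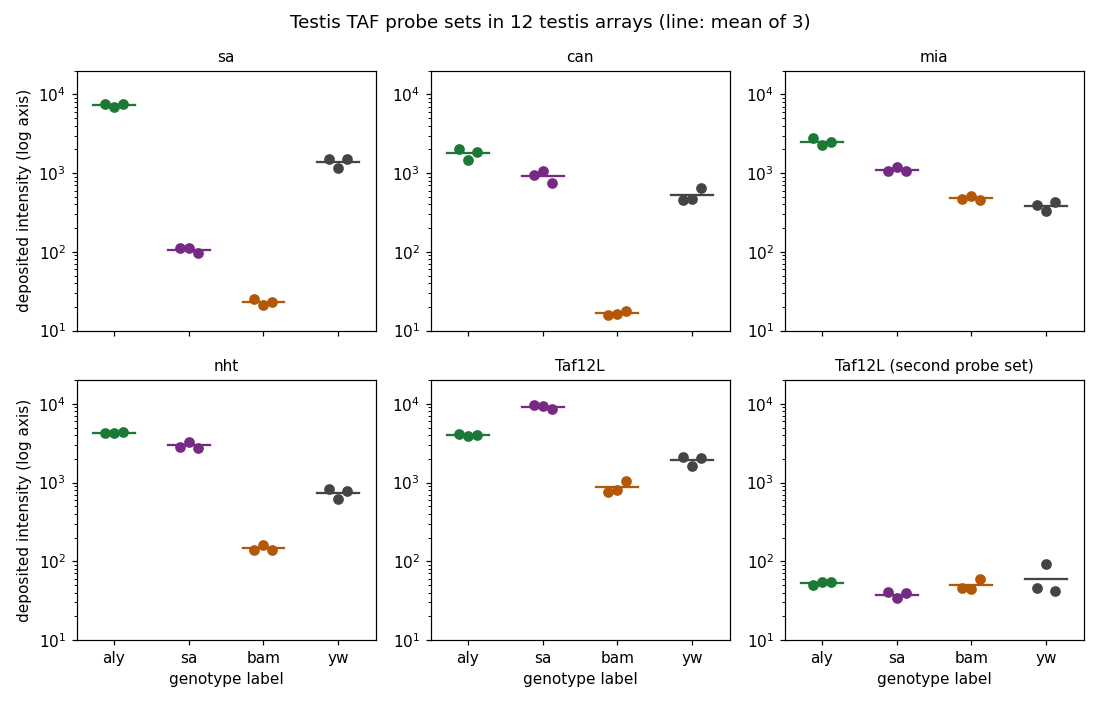
Deposited intensity (log axis) of the 6 testis TAF probe sets in aly, sa, bam and yw testes, with 1 point per array and a line at the mean of 3. The sa transcript spans 20.8 in a bam array to 7616 in an aly array, Taf12L peaks in sa testes, and the second Taf12L probe set stays below 100 throughout.

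Against bam testes, both arrest mutants had more transcript of all 5 testis TAF genes, read for Taf12L from its brighter probe set. In aly, 5 of 6 probe sets were called higher and 0 lower. Of all probe sets 11.8% were called higher and 15.1% lower, and of those with a genotype mean of at least 100 (the brighter ones) 21.9% and 27.0%. The sa transcript differed by 7.56 on the log2 scale (7361 ± 419 against 23.0 ± 2.23, adjusted p = 2.04e-12), can by 5.79 and nht by 4.74. Smaller differences were found for mia (2511 ± 237 against 480 ± 24.3, log2 difference 2.35) and Taf12L (4013 ± 176 against 874 ± 153, 2.19). In sa testes 5 of 6 probe sets were called higher than in bam and 0 lower, against 14.6% higher and 16.4% lower of all probe sets and 26.7% and 29.4% of the brighter ones. Here can differed by 4.83, nht by 4.20 and Taf12L by 3.39 (9246 ± 529 against 874 ± 153, adjusted p = 1.70e-09), and mia by 1.18, a call that centring each array on its median ends (0.95). These comparisons share the 3 bam arrays, so the pair of counts is not independent.

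Against yw testes the levels in the arrest mutants were higher for most members. In aly, 5 of 6 probe sets were called higher and 0 lower, against 20.8% higher and 11.0% lower of all probe sets and 38.6% and 20.1% of the brighter ones. The differences were 2.65 for mia, 2.52 for nht (4314 ± 54.7 against 744 ± 110), 2.39 for the sa transcript, 1.75 for can and 1.07 for Taf12L. The Taf12L call is lost without yw replicate 2 (0.95). In sa testes, 3 of 6 were called higher and 1 lower, against 17.6% higher and 9.5% lower of all probe sets and 32.7% and 17.4% of the brighter ones. Those called higher were Taf12L (2.27), nht (1.98) and mia (1.49), and the one called lower was the mutated sa transcript itself (107 ± 9.26 against 1404 ± 195, -3.52, adjusted p = 1.78e-09). For can the sa minus yw difference was 0.79 (95% interval 0.41 to 1.17), short of 2-fold, and 1.10 and called without replicate 3 of each genotype. The scale to which arrays are set matters for yw. When arrays were set to equal ribosomal protein gene levels (ribosomal centring), the median of all probe sets moved to -1.13 in aly minus yw and -1.30 in sa minus yw. On that scale Taf12L and can were no longer called in aly (-0.12 and 0.56), nor nht and mia in sa (0.73 and 0.24), and can was at -0.46 in sa. The second Taf12L probe set was called lower there, in aly (-1.26) and in sa (-1.69). Counts of calls became 3 higher and 1 lower in aly, and 1 higher and 2 lower in sa. Ribosomal centring shifts all log2 values of an array by the same amount. Relative to the median of all probe sets these differences are therefore the same on both scales by construction, which checks nothing (1.01 for Taf12L in aly minus yw). The same shift lowers each single-gene difference from yw that is given below on the deposited scale.

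In bam testes 4 of 6 probe sets were called lower than in yw, against 13.5% of all probe sets and 24.6% of the brighter ones. Called higher were 0 of 6, against 26.6% of all and 48.2% of the brighter ones. The sa transcript was at 23.0 ± 2.23 against 1404 ± 195 (-5.18), can at 16.6 ± 0.977 against 528 ± 110 (-4.04), nht at 147 ± 13.3 against 744 ± 110 (-2.21) and Taf12L at 874 ± 153 against 1917 ± 262 (-1.12). The Taf12L call is lost with median centring (-0.94). On the ribosomal scale, where the median of all probe sets was -1.47, all 6 probe sets were called lower in bam. These then included the second Taf12L probe set (-1.66) and mia (-1.20), the opposite direction to its 0.31 on the deposited scale.

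Between the arrest mutants, 2 of the 6 probe sets were called higher in aly than in sa and 1 lower. Of all probe sets 5.84% were called higher and 8.59% lower, and of the brighter ones 10.7% and 15.7%. The sa transcript, whose gene is mutated in sa testes, differed by 5.91, and mia by 1.17 (2511 ± 237 against 1108 ± 75.2, adjusted p = 5.38e-06). Taf12L went the other way, at 4013 ± 176 in aly against 9246 ± 529 in sa (-1.20, 95% interval -1.48 to -0.92, adjusted p = 2.37e-05). Neither direction changed under another scaling: with quantile normalization, median and ribosomal centring and every left-out array, mia ran from 1.10 to 1.35 and Taf12L from -1.27 to -1.02. The can difference, 0.96 (0.58 to 1.33), and the nht difference, 0.54 (0.29 to 0.79), had adjusted p = 0.0011 and 0.00277 but fell short of 2-fold. For can the call is gained with median centring (1.13), ribosomal centring (1.02), without aly replicate 2 (1.09) and without sa replicate 2 (1.07).

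**Figure D2:**
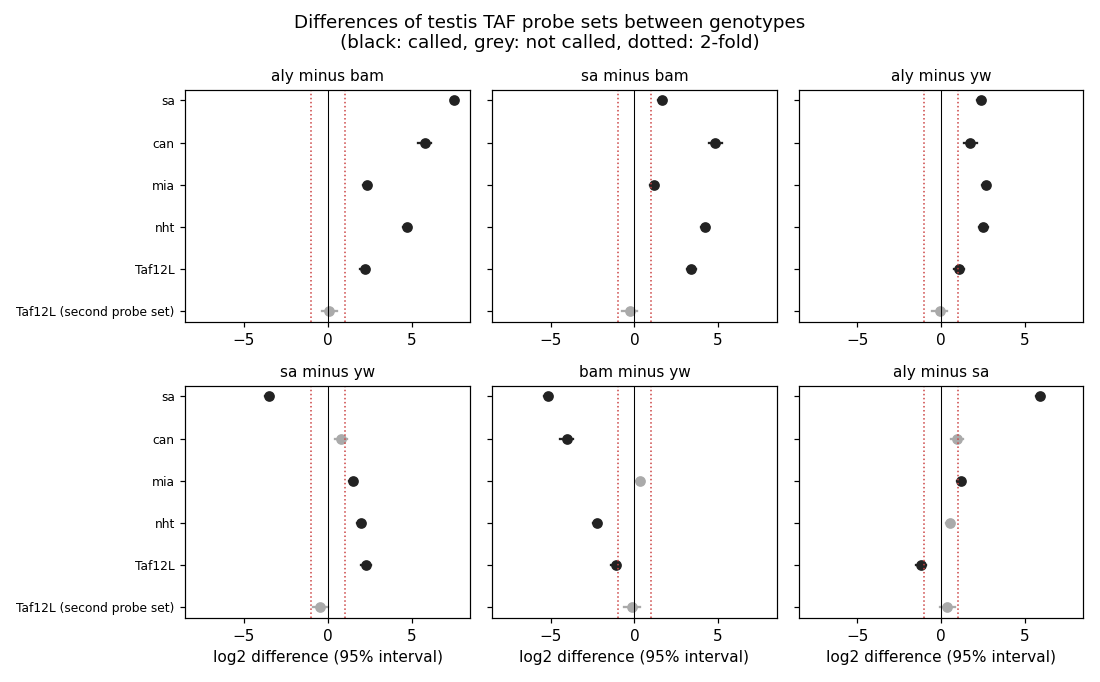
Log2 difference of each testis TAF probe set in the 6 comparisons, with its 95% interval; black points were called, grey points were not, and dotted lines mark a 2-fold change. In aly minus sa the sa transcript (5.91) and mia (1.17) lie to the right and Taf12L (-1.20) to the left.

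Each testis TAF has a general paralog. Taf6 had the same order of genotype means as mia, and the general paralogs of the other 4 genes had other orders than their testis TAF. Taf4, the scaffold subunit of TFIID and paralog of nht, was at 47.5 ± 9.53 in aly and 52.8 ± 15.7 in sa, against 815 ± 83.3 in bam (-3.72 and -3.61, both called lower). It was equally dim in yw, at 33.1 ± 3.37. Taf4 was thus high in bam testes alone of the 4 genotypes, where nht had its lowest level. Its second probe set was dim everywhere, with means of 37.9 to 71.9. Taf12, paralog of Taf12L, was at 774 ± 37.8 in aly and 691 ± 93.8 in sa against 1481 ± 117 in bam, called lower in sa (-1.09) and not in aly (-0.92). Taf8, paralog of sa, ran parallel to the testis gene only in part, at 1001 ± 102 in aly and 857 ± 102 in sa against 466 ± 85.2 in bam (1.09, called, and 0.87, not called). Taf6, the histone-fold paralog of mia, was at 2061 ± 102 in aly and 1690 ± 256 in sa, against 892 ± 160 in bam (1.21, called, and 0.91, not called). Taf5, paralog of can, was at 644 ± 46.2 in aly and 514 ± 172 in sa against 543 ± 47.7 in bam, and was not called (0.24 and -0.12). Against yw, 4 of the 5 general paralogs were called higher in aly (Taf6 3.25, Taf5 3.06, Taf12 1.89 and Taf8 1.03) and 3 in sa (Taf6 2.95, Taf5 2.70 and Taf12 1.72). In bam 4 of 5 were called higher than in yw (Taf4 4.08, Taf5 2.82, Taf12 2.81 and Taf6 2.04), where 4 of the 5 testis TAFs were called lower. Against yw the medians of the 5 general paralogs were 1.89 in aly, 1.72 in sa and 2.81 in bam, beside 0.15, 0.08 and 0.18 for all genes. Of the brighter probe sets 38.6% were called higher than yw in aly, 32.7% in sa and 48.2% in bam. All these differences from yw are on the deposited scale. Ribosomal centring, which moves the median of all probe sets to -1.13 in aly, -1.30 in sa and -1.47 in bam, lowers them too. The calls of the general paralogs on that scale are not given here. None of the 5 was called between aly and sa, where 10.7% of the brighter probe sets were called higher in aly and 15.7% lower.

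The log2 ratio of each testis TAF to its general paralog was taken array by array, which cancels any offset of a whole array, and tested over the 4 genotypes with an exact permutation test of all 15400 splits of the 12 arrays. The ratio differed between genotypes for all 5 pairs (adjusted p = 1.1e-04 for sa, nht and Taf12L and 1.9e-04 for can and mia; 6.5e-05 is the smallest p that the splits can give). The log2 ratio of nht to Taf4 was higher by 8.45 in aly than in bam and by 7.81 in sa than in bam. That of sa to Taf8 was higher by 6.47 in aly than in bam, and that of can to Taf5 by 5.55. Taf4 in aly and sa, and the sa and can transcripts in bam, had means within or below the range of the array medians, so the size of these 3 ratios depends on the pseudocount. With a pseudocount of 1 and of 64 the aly minus bam value was 8.96 and 7.36 for nht, 7.15 and 5.40 for sa, and 6.42 and 4.30 for can. The Taf12L to Taf12 ratio was 22.3-fold higher in sa and 8.64-fold higher in aly than in bam. The mia to Taf6 pair moved least, with a ratio 2.20-fold higher in aly than in bam and 1.20-fold higher in sa, where the arrays overlapped bam. Against yw the mia ratio was lower in every mutant, at -0.59 in aly, -1.47 in sa and -1.73 in bam on the log2 scale. The can ratio was also lower than in yw, at -1.32 in aly, -1.91 in sa and -6.86 in bam. Taf6 and Taf5 were at 204 ± 35.0 and 63.6 ± 12.5 in yw, their lowest means. With the sa mutant arrays left out, the ratio of sa to Taf8 gave an exact permutation p of 0.0036, the smallest that 280 splits allow.

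**Figure D3:**
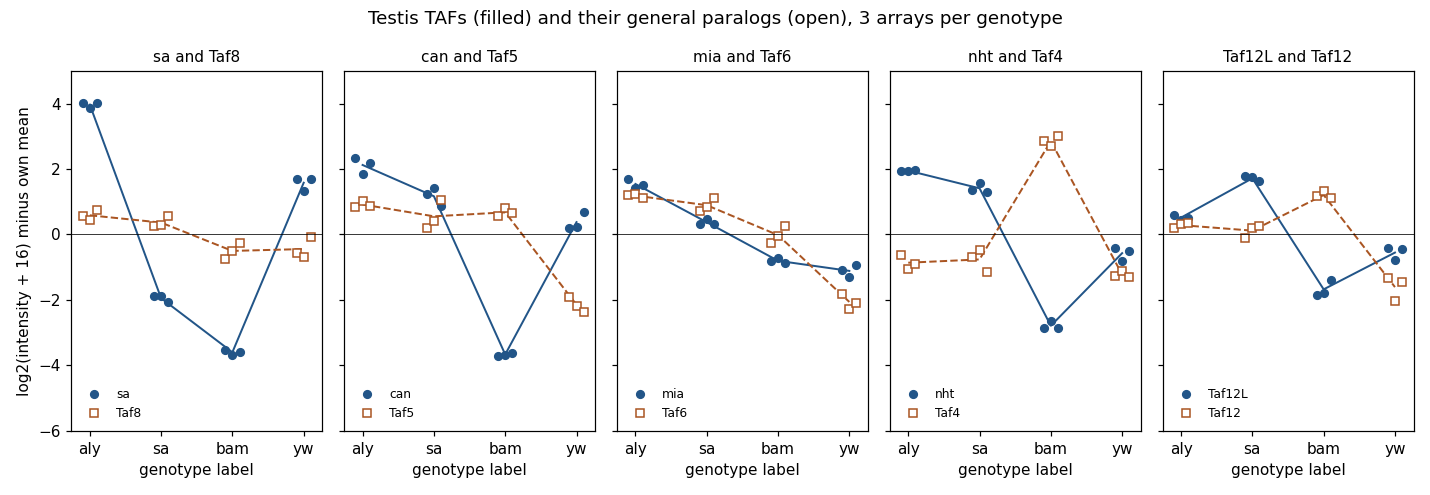
Log2(intensity + 16) of each testis TAF (filled circles, solid line) and its general paralog (open squares, dashed line) in 3 arrays of each genotype, each gene centred on its own mean. The lines of nht and Taf4 cross between sa and bam testes, while mia and Taf6 keep the same order of aly, sa, bam, yw.

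The other TFIID subunits and TBP relatives were not uniform. Of 10 measured, 3 were called higher and 2 lower in aly than in bam (median -0.17, all genes 0.04), and 2 higher and 3 lower in sa than in bam (median -0.45, all genes -0.09). These counts lie near the shares of the brighter probe sets, 21.9% higher and 27.0% lower in aly and 26.7% and 29.4% in sa. Of all probe sets 11.8% were called higher and 15.1% lower in aly, and 14.6% and 16.4% in sa. The TBP relatives Trf and Trf2 rose in both arrest mutants relative to bam, Trf by 2.43 in aly and 1.37 in sa and Trf2 by 2.42 in aly and 1.77 in sa. Tbp itself was at 671 ± 64.1 in aly and 235 ± 34.0 in sa against 790 ± 18.5 in bam, and was called lower in sa (-1.69) but not in aly (-0.24). Between the arrest mutants 4 of 10 were higher in aly and 0 lower: Taf1 (2.28), Tbp (1.46), Taf10 (1.42) and Trf (1.07). Of all probe sets 5.84% were called higher there and 8.59% lower, and of the brighter ones 10.7% and 15.7%. As background, TAF10 is the histone-fold partner of TAF8, the general relative of sa. Taf10b, also among the 10, went the other way from Taf10, at 1436 ± 133 in aly against 2652 ± 92.2 in sa (-0.88, not called).

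Genes of tMAC, the complex that aly belongs to, were called higher in aly than in bam in 6 of 9 cases and higher in sa than in bam in 5 of 9 (medians 3.19 and 1.67, all genes 0.04 and -0.09). Higher than in bam were 11.8% of all probe sets in aly and 14.6% in sa, and 21.9% and 26.7% of the brighter ones. The zinc-finger subunit topi was at 8263 ± 644 in aly, 575 ± 53.6 in sa, 71.2 ± 17.2 in bam and 1255 ± 108 in yw. In sa minus yw topi was called lower (-1.10), alone among the 9, while 6 others were called higher. Of all probe sets 9.5% were called lower in that comparison and 17.6% higher, and of the brighter ones 17.4% and 32.7%. The testis bromodomain genes tbrd-1, tbrd-2 and tbrd-3 were higher in aly than in sa (2.11, 3.44 and 1.36), and all 3 were also higher in each arrest mutant than in bam. Their median was 2.11 in aly minus sa, where that of all genes was 0.1 and 10.7% of the brighter probe sets were called higher. Against bam it was 6.4 in aly and 4.08 in sa, beside 0.04 and -0.09 for all genes. As background, tbrd-1 is known to work in spermatocytes together with testis TAFs.

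**Figure D4:**
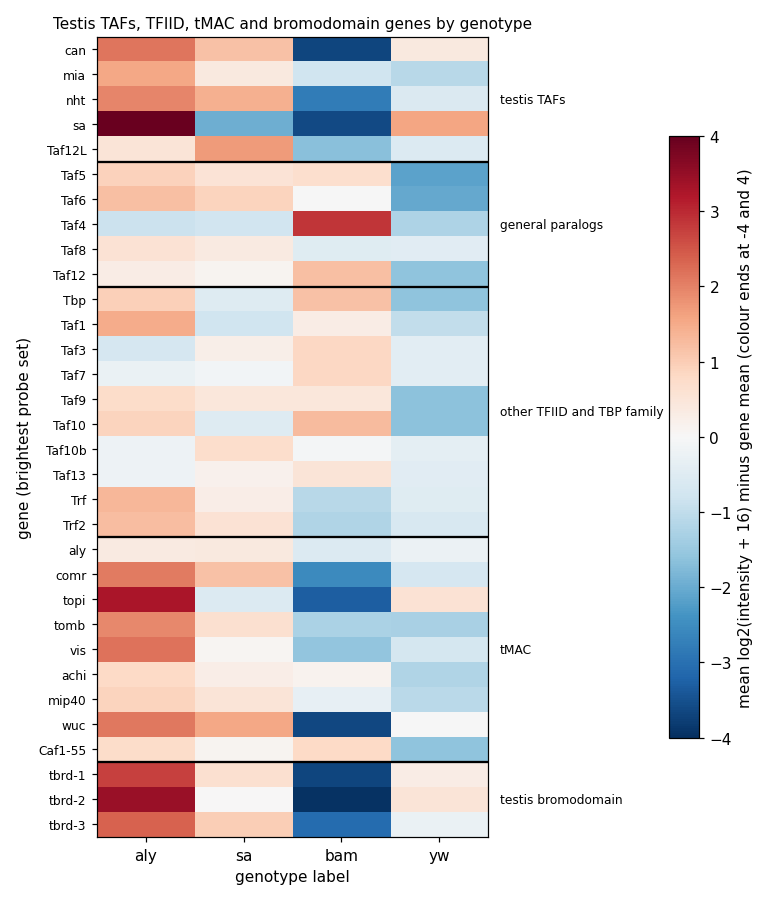
Mean log2(intensity + 16) of each gene (rows, brightest probe set) in aly, sa, bam and yw testes, minus the mean over the genotypes, with colours ending at -4 and 4. All 5 testis TAFs are blue in bam, whereas Taf4 is red there, and the tbrd genes are reddest in aly.

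Genes of spermatid differentiation, meiotic division and the Polycomb group were also measured. Of 19 spermatid differentiation genes, 17 were called higher in sa than in bam and 13 in aly, and 12 were called lower than in yw in each arrest mutant. Higher than in bam were 14.6% of all probe sets in sa and 11.8% in aly, and 26.7% and 21.9% of the brighter ones. Lower than in yw were 9.5% of all probe sets in sa and 11.0% in aly, and 17.4% and 20.1% of the brighter ones. Between aly and sa 7 were lower in aly and 0 higher, led by Mst77F (-5.05), a sperm chromatin protein gene, djl, fzo (-3.19), the spermatid mitofusin, and ProtB (-1.97), a protamine-like gene. In that comparison 8.59% of all probe sets were called lower and 5.84% higher, and 15.7% and 10.7% of the brighter ones. Among 7 meiotic division regulators, CycB, the B-type cyclin, was lower in aly than in sa (-3.08), as were the translational regulator bol (-2.50) and the Cdc25 phosphatase twe (-1.12). In sa minus yw 2 of the 7 were called higher (CycB and Rbp4) and 1 lower (bol). The other 4 were not called, among them twe (0.22). Of all probe sets 17.6% were called higher and 9.5% lower in sa minus yw, and of the brighter ones 32.7% and 17.4%. The counts of these regulators lie near the shares of the brighter probe sets. Of 10 Polycomb group genes, 5 were called lower and 1 higher in aly than in bam, and 7 lower and 1 higher in sa than in bam (medians -0.83 and -1.61, all genes 0.04 and -0.09). Of all probe sets 15.1% were called lower than in bam in aly and 16.4% in sa, and of the brighter ones 27.0% and 29.4%. The Polycomb gene called higher was Sce, the Ring1 ubiquitin ligase subunit (2.41 in aly and 1.31 in sa). Pc, the chromodomain protein that gives the group its name, was lower in both (-1.14 and -1.20). Against yw 9 of 10 Polycomb genes were called higher in aly, 7 in sa and 10 in bam (medians 1.72, 1.23 and 2.35, all genes 0.15, 0.08 and 0.18), where 38.6%, 32.7% and 48.2% of the brighter probe sets were called higher. These counts hold for the deposited scale, and ribosomal centring lowers the differences behind them.

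Genes with a profile like that of a testis TAF were found by the root mean square difference (RMS) between log2 profiles over the 12 arrays, each centred on its own mean, among 7687 other genes with a genotype mean of at least 200. For can the nearest gene was CG7691 (RMS 0.15), followed by CG43100, Pk34A, nsr and Pkd2 (0.26 to 0.31). CG7691 was at 2673 ± 213 in aly, 1278 ± 54.8 in sa, 29.4 ± 2.48 in bam and 830 ± 108 in yw. For nht the nearest were Oli (0.23), CG15142 (0.26), the tMAC gene comr (0.26), Nmnat (0.32) and the zinc-finger gene kmg (0.33). For mia they were CG7745 (0.13), Ir76a, CG4820, CG2121 and CG3534 (0.16 to 0.21), and for Taf12L INPP5E (0.30), Agpat1, PGS1, CG8419 and ast (0.35 to 0.39). INPP5E was at 599 ± 75.6 in aly, 1221 ± 151 in sa, 143 ± 23.5 in bam and 353 ± 57.0 in yw, an order that its choice as the nearest gene favours.

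The sa transcript had no near neighbour over all arrays, with CG14841 (0.82), topi (0.96), CG13501 (1.02), CG7907 (1.13) and tbrd-2 (1.17) as the closest. Its gene is the one mutated in sa testes, and over the 9 other arrays CG12674 came to 0.14, followed by CG10748, Zmynd10, CG14930 and tbrd-2 (0.24 to 0.37). These genes were not at the floor in sa arrays: CG12674 was at 3621 ± 514 and Zmynd10 at 1544 ± 315. Within the family, can and nht were closest to each other (RMS 0.69), and nht and Taf12L followed (0.93). Many other genes were nearer: among the 7687, nht ranked 66 for can and can 59 for nht. Taf12L ranked 183 for nht and nht 676 for Taf12L, and the sa transcript ranked 7497 for Taf12L. Leaving out the sa arrays, can was the member nearest to the sa transcript (0.75, rank 39). Genotype makes up most of each profile, so likeness here says that levels follow the same 4 genotypes.

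**Figure D5:**
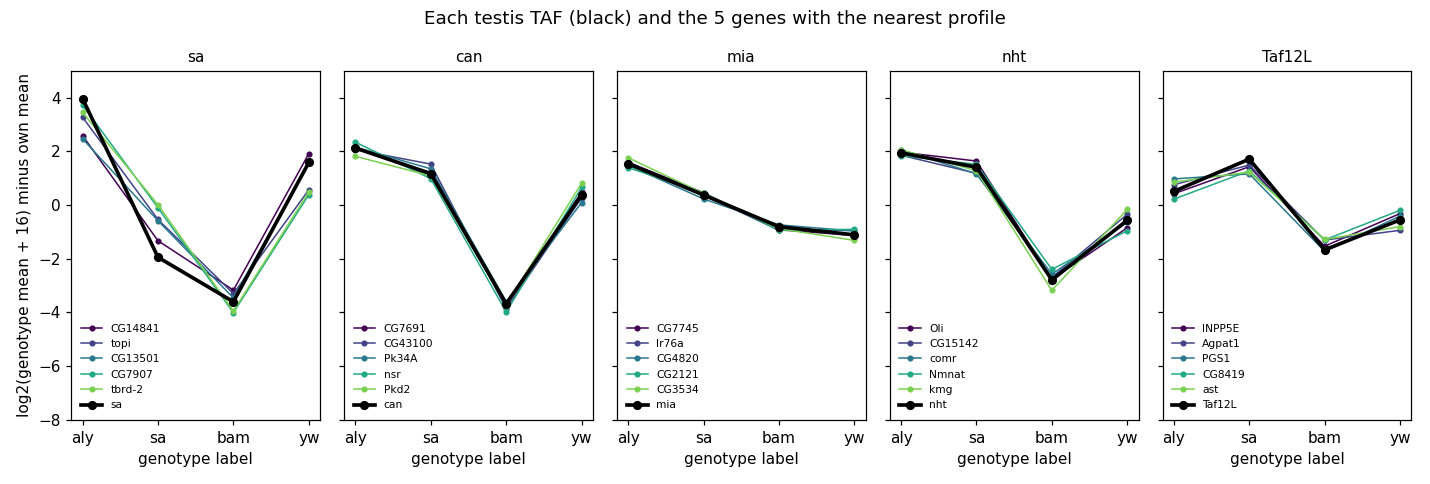
Log2(genotype mean + 16) of each testis TAF (black) and of the 5 genes with the nearest profile, each centred on its own mean. The neighbours of can, mia and nht lie on the black line, those of Taf12L lie close to it, and those of the sa transcript stay above it in sa testes.

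Genes next to the testis TAFs on the chromosome were looked up in the RefSeq gene table after the member values were seen. Only Pcmt (1.15) and CG15262 (1.25) were at least 2-fold higher in aly than in bam. In sa only Pcmt (1.20), CG32440 (3.08) and CG15631 (3.88) were. Of the brighter probe sets 21.9% were called higher than in bam in aly and 26.7% in sa. A link between neighbours was not tested. Pcmt beside mia was at 4409 in aly, 4561 in sa, 1973 in bam and 2210 in yw, so it shared the higher level in both arrest mutants but not that of aly over sa. CG2519 on the other side of mia was at 99.6 in aly, 133 in sa, 1106 in bam and 70.5 in yw. The neighbours of can, the odorant receptor genes Or67c and Or67d, had genotype means of 14.3 to 16.6 throughout. The gene rgn, which overlaps sa in that table, was at 79.6 in aly, 149 in sa, 749 in bam and 140 in yw. It was thus lowest in aly and highest in bam, the reverse of the sa transcript, but hardly differed between sa and yw (0.07). CG32440 on 1 side of sa was at 23.5 in aly, 352 in sa, 25.1 in bam and 6048 in yw. On the other side barc was at 730 in aly, 787 in sa, 871 in bam and 298 in yw. The gene dcma, which overlaps Taf12L, was dim in all genotypes (33.1 to 39.9). Beside Taf12L, CG3251 was at 1346 in aly, 994 in sa, 3896 in bam and 284 in yw. CG15631 on its other side was at 53.1 in aly, 554 in sa, 22.1 in bam and 1960 in yw. CG15262 beside nht was at 8568 in aly, 4665 in sa, 3587 in bam and 1134 in yw, so it shared the order of aly over sa but not the low level in bam. On the other side of nht, esg was at 111 in aly, 32.6 in sa, 90.8 in bam and 144 in yw. The strand that each probe set reads is not given in the sources used here.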

How the data were processed

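Transcript intensities of 12 arrays were analysed, in groups taken from the genotype and replicate number in the labels. The deposited values are linear probe-set intensities. Per the labels and the series' design text, the authors exported scanner data from the Affymetrix software and normalized them with RMA, and the submitters' processing notes name MAS5, RMA and limma, without versions. Whether MAS5 or RMA gave the deposited intensity, and how arrays were scaled to each other, is not stated. Of 18952 probe sets, 183 controls were left out. Of the rest, 13647 had 1 gene symbol, 402 several and 4720 none here; 13544 matched the RefSeq table of the Release 6 assembly by Entrez identifier and 0 symbols changed. Which build the array's design used is not given in the sources used here, so no coordinates are printed.

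The values were taken as log2(intensity + 16) and fitted with limma 3.58.1 (R 4.3.3), as 1 mean per genotype over all probe sets, with eBayes, 6 comparisons, two-sided tests and Benjamini-Hochberg adjustment. The fit and the permutation test were tested on simulated data. Gene lists and paralog pairs used the brightest probe set of each gene. Lists are described by counts and medians beside those of all genes, with no set test. The symbols of 4 other TFIID genes, and some of other lists, matched no single-gene probe set and were not analysed here. The named genes are all members, the general paralogs and Tbp, at most 4 genes per list and comparison, those with the greatest absolute difference, and the 5 genes nearest in profile. Neighbouring genes, second probe sets and other list members given by name were added after their values were seen. The members and lists were chosen with earlier results of these data known. Replicate numbers did not pair the arrays: deviations from genotype means of same-numbered arrays correlated at -0.373 to 0.402. Tables were made in Python 3.11.15 and plots with matplotlib 3.10.9.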

Additional observations from a re-analysis of the deposited data

How the results depend on the processing

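The alternatives were pseudocounts of 1 and 64, probe sets with a genotype mean of at least 100 only, quantile normalization, median and ribosomal centring, array weights, the brightest probe set per gene, robust eBayes with a mean trend, a replicate block, no fold minimum, a stricter adjusted p of 0.01, only the 6 arrays of a comparison, each array left out and, chosen after seeing the data, replicate 3 of each genotype left out. Of 924 member values under these 26 settings, 903 kept direction and call. The replicate block changed no call of a member, and its counts were those of the fit without it: 5 probe sets against bam and 5 against yw in aly, 5 against bam and 4 against yw in sa, 4 in bam against yw, and 3 in aly against sa. Of the total counts, both directions together, 1 moved by over 1.5 times, to 5 probe sets (4 higher, 1 lower) in aly minus sa without the fold minimum, by construction of the rule. By direction, ribosomal centring gave 3 higher and 1 lower in aly minus yw, 1 higher and 2 lower in sa minus yw, and 0 higher and 6 lower in bam minus yw. Without the fold minimum bam minus yw had 1 higher. With ribosomal centring mia in bam minus yw turned to -1.20 and Taf12L in aly minus yw to -0.12, where the median of all probe sets was -1.47 and -1.13. That centring moved the share of calls that were higher to 9.86% in aly minus yw (65.3% on the deposited scale), 3.22% in sa minus yw (64.9%), 10.6% in bam minus yw (66.3%) and 56.4% in aly minus bam (44.0%), and median centring moved it to 53.1% in aly minus sa (40.5%). The ratios to the general paralogs differed between genotypes in 5 of 5 pairs under each of their 5 alternatives. Of 4056 list counts 228 moved by over 1.5 times, 41 of them with ribosomal centring against yw. Dim values such as can and the sa transcript in bam, and Taf4 in aly and sa, have no detection call here, so their folds are set by the pseudocount: can in aly minus bam was 6.67 with a pseudocount of 1 and 4.52 with 64.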

Other observations

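The lowest of the 3 yw arrays was replicate 2 for 4 of the 6 testis TAF probe sets, against 45.4% of all probe sets. In aly arrays the lowest was replicate 2 for 5 of 6, against 33.8% of all probe sets, and in sa arrays replicate 3 for 4 of 6, against 34.1%. Their part in the differences is given by the values without each array.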
